A study of Mus musculus with 14 samples.

Results

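The acute-phase proteins that adipocytes secrete were followed through 9 genes, taken from a fixed list among 21853 protein-coding genes: Saa1, Saa2, Saa3, Orm1, Hp, Lcn2, C3, Serpina3n and Ptx3. The list was chosen with earlier results of these data known. For each gene, the CRTC2, NF-κB p65 and H3AcK27 peaks in the gene body and within 30 kb of it were collected, and a promoter was taken as the stretch from 1000 bp upstream to 100 bp downstream of an annotated start site. The cells were 3T3-L1, a mouse preadipocyte line that becomes adipocytes in culture, differentiated for 4 days. They were left untreated (control) or exposed for 1 h to 10 µM forskolin (FSK, which raises cAMP by activating adenylyl cyclase), to the cytokine TNFα (10 ng/ml), or to both agents at once. Only 1 library was made per antibody and treatment, so treatment effects could not be tested, and every count below describes single libraries.

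Acute-phase proteins are plasma proteins whose production rises during inflammation, mostly in the liver but also in adipose tissue. Their genes are textbook targets of NF-κB, STAT3 and C/EBP factors, which cytokine receptors activate or induce. CRTC2 is a coactivator that enters the nucleus on cAMP signaling and docks on CREB at cAMP response elements (CREs), p65 is the transactivating subunit of NF-κB that TNFα releases into the nucleus, and H3AcK27 is a histone acetylation found at active promoters and enhancers.

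Among the motifs searched for in the promoters (CRE, AP1, NF-κB, C/EBP and STAT), the C/EBP motif (TTGCNNAA on either strand) was found in most of the group. Between 250 bp upstream and 50 bp downstream of a start site, this motif was found in 8 of the 9 genes, compared with 17.1% of all protein-coding genes, and at 10 of 13 annotated start sites, compared with 9.84% of 54361 start sites. Serpina3n was the exception. At Saa2 and C3 the same match was counted from neighboring start sites. Saa1 and Saa2, whose 300 bp upstream of the start site were 68.1% identical, had the same matched letters. The start sites are therefore not separate observations. The matches are shown with 10 bases on each side, 5′ to 3′ in the direction of the gene, with the motif in capitals (GRCm38), because no other motif searched for was found in so many of these promoters.
Saa1 (chr7:46743145-46743172, minus strand): tgtgctcccaTTGCACAAtgagggagaa
Saa2 (chr7:46751640-46751667, plus strand): tgtgctcccaTTGCACAAtgagggaaaa
Saa3 (chr7:46715758-46715785, minus strand): gtaagtgggaTTATGCAAgatcaaacag
Orm1 (chr4:63344429-63344456, plus strand): agggaacattTTGCGCAAgacatttccc
Hp (chr8:109579158-109579185, minus strand): cttagagacgTTGTGCAAacacagaaat
Lcn2 (chr2:32387938-32387965, minus strand): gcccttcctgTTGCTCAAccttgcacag
C3 (chr17:57228164-57228191, minus strand): ggaaactatgTTGCGAAAttttgggcag
Ptx3 (chr3:66219820-66219847, plus strand): tggtttaacaTTGTGCAAcctcttcagc
The first base of the match lay 182 bp upstream of the Saa1 start site, 75 bp upstream for Saa3, 121 bp for Orm1, 158 bp for Lcn2, 45 bp for C3 and 80 bp for Ptx3. At Hp the match spanned the start site itself, beginning 3 bp upstream. The CRE half-site TGACG was found in 0 of the 9 promoters, compared with 32.9% of genes, and the STAT motif TTCNNNGAA in 0, compared with 14.0%. Away from the promoters, CRTC2 peaks held the half-site in the Hp, C3 and Ptx3 windows with FSK. With both agents they held it in the Hp, C3 and Serpina3n windows. The Ptx3 peak, 1391 bp downstream of the start site, was listed with FSK alone and held half-sites on both strands. The peaks in the other windows lay nearest the start site of another gene. An AP1 motif (TGANTCA) was found at Orm1 alone, 208 bp upstream, compared with 12% of genes. The strict NF-κB consensus used in the study was in 0 of the 9 promoters, but it is rare, at 0.288% of genes, while the looser NF-κB consensus was in 3 of 9 (C3, Lcn2 and Ptx3), compared with 15.0%. A match is a match of letters only, and a missing match says nothing of whether a factor binds.

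p65 was listed near most of these genes in the 2 libraries with TNFα, a larger share than over all genes. Because the genes were chosen with earlier results of these data known, this larger share is no independent observation. No p65 peak was listed within 30 kb of any of the 9 genes in control cells, where 1.35% of all genes had one. With FSK alone 2 of 9 genes had a p65 peak (13.0% of all genes), with TNFα alone 6 of 9 (11.2%), and with FSK and TNFα 7 of 9 (16.9%). Saa2 and Serpina3n had none in any library. The p65 peaks counted for Saa1 were the Saa3 peaks, since the SAA genes lie next to each other on chromosome 7 and their windows overlap. The Orm1 peak with TNFα alone lay 29139 bp upstream, in an intron of Col27a1. Within 10 kb, 4 genes had a p65 peak with TNFα and 6 with both agents, and the share of all genes was not computed at that distance.

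At the promoter itself p65 was listed at 0 of 9 genes in the control (0.0915% of all genes), at 1 after FSK (0.586%), at 3 after TNFα (0.627%) and at 4 after FSK and TNFα (1.01%). The gene with FSK alone was Hp, the 3 with TNFα were Saa3, Lcn2 and C3, and the 4 with both agents were Saa3, Lcn2, C3 and Hp. All 4 promoter peaks with both agents held the C/EBP motif, which 11.3% of the 4221 p65 peaks of that library held. These are the promoter matches printed above, so the count is no separate observation, and the 11.3% is over peaks at any position. With TNFα alone the promoter peaks of Lcn2 and C3 held the match and that of Saa3 did not.

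CRTC2 was listed near more genes overall than p65, and near these 9 in shares closer to those of all genes. A CRTC2 peak was listed within 30 kb of 4 genes in untreated cells (32.2% of all genes), of 6 after FSK (53.7%), of 8 after TNFα (64.8%) and of 9 after both agents (57.5%). At promoters the counts were 3 in the control (11.8%), 4 after FSK (27.4%), 3 after TNFα (39.9%) and 6 after both agents (29.1%). Lcn2 and Ptx3 carried promoter CRTC2 in all 4 libraries, C3 in all but the FSK library, Hp and Serpina3n in the libraries with FSK, and Orm1 only with both agents. The 3 SAA promoters had none.

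**Figure D1:**
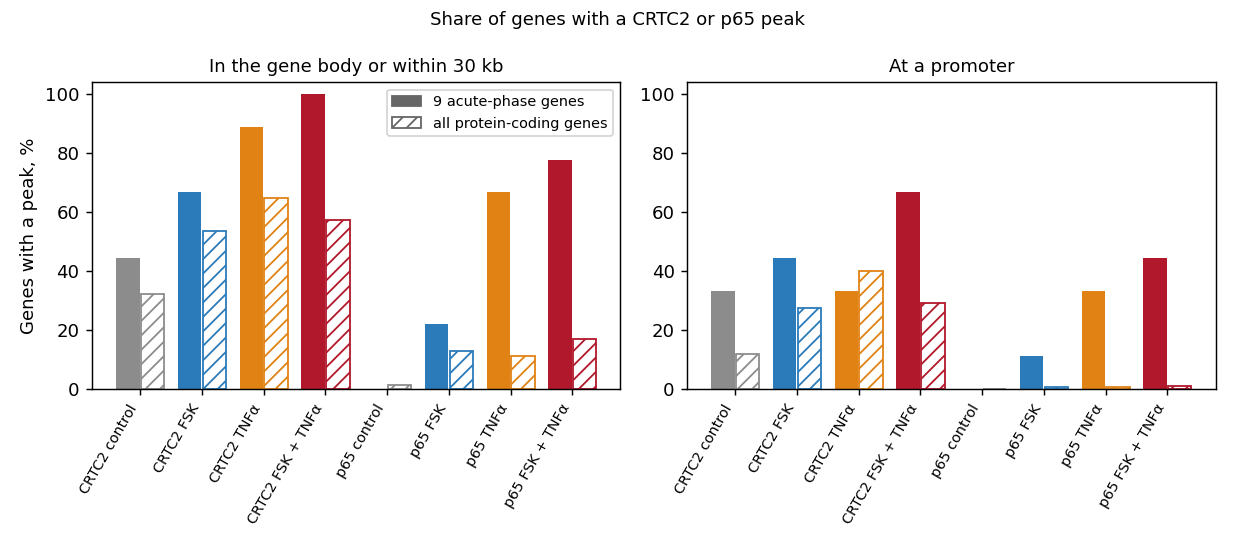
Percent of genes with a CRTC2 or p65 peak in each treatment, in the gene body or within 30 kb (left) and at a promoter (right). Filled bars are the 9 acute-phase genes and hatched bars are all 21853 protein-coding genes. With FSK and TNFα, 4 of 9 promoters had p65 against 1.01% of all genes.

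**Figure D2:**
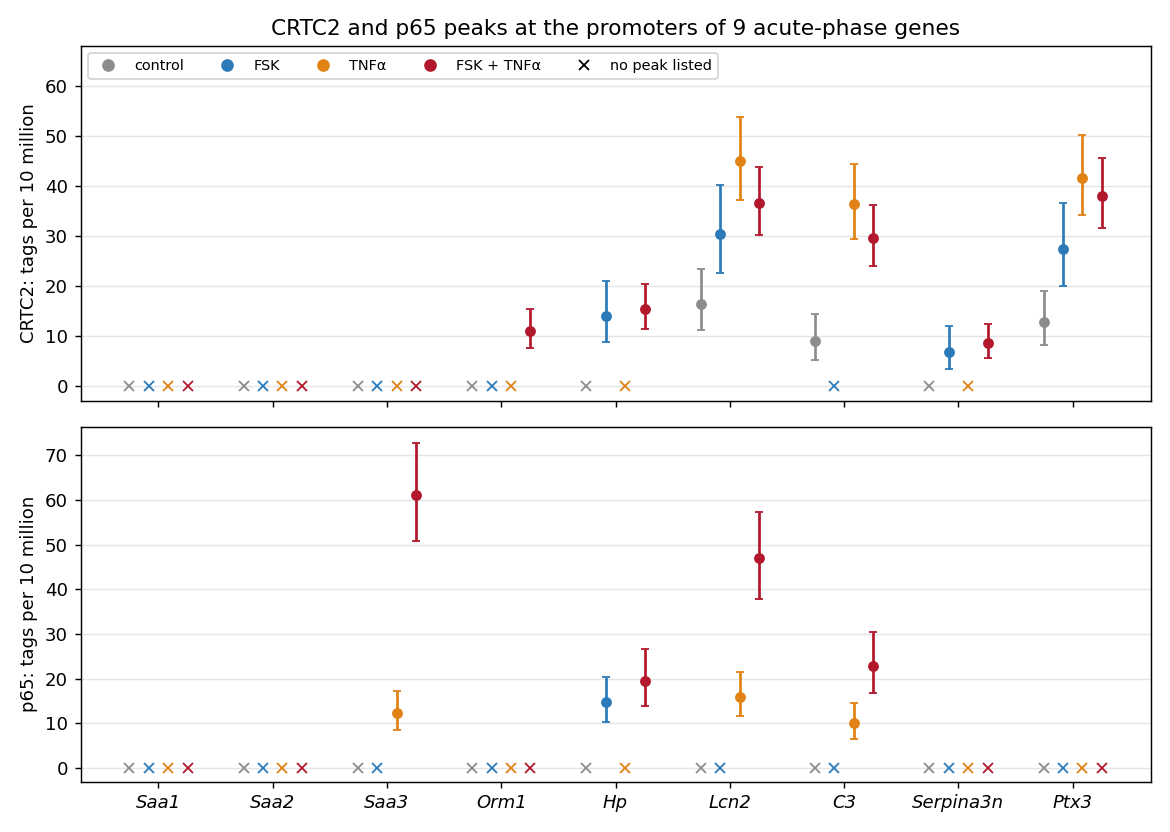
Normalized tags, scaled to 10000000 per library, of the promoter CRTC2 (top) and p65 (bottom) peaks at each gene, 1 library per point. Bars are exact Poisson 95% intervals of the tag count, repeated tags included, and a cross marks a library with no peak listed there. The p65 points of Saa3, Lcn2 and C3 with FSK and TNFα lie above those with TNFα alone, and no gene has a control p65 point.

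Peak heights are given below as normalized tags, the tags of a peak scaled to 10000000 per library. An exact Poisson 95% interval is given with them and covers counting error only. The scores of these CRTC2 and p65 peaks, in which repeated tags are limited, are lower than their tag counts. The intervals take repeated tags as separate counts, so they may be too narrow. A peak that is not listed fell below the calling threshold and was not measured as 0. Libraries with FSK were called against an input from FSK-treated cells and the others against an input from untreated cells, and the part of the input in which peaks were listed was not tested.

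Saa3 had the strongest p65 peak of the group. Serum amyloid A proteins are apolipoproteins of HDL that rise steeply in inflammation, and Saa3 (chr7:46711998-46715700, minus strand, 4 exons) is the form made mainly outside the liver. No p65 peak was listed at its promoter in control or FSK cells. With TNFα the peak had 12.3 normalized tags (8.44 to 17.2), with its midpoint 152 bp upstream of the start site, and with FSK and TNFα it had 61.0 (50.8 to 72.7), 128 bp upstream. The 2 intervals, with repeated tags included, do not overlap, and the scores were 8 with TNFα and 29 with both agents. The ratio was 4.96, whereas the median over the 272 p65 peaks listed in both libraries was 1.31. By score it ranked 10 among the 4221 peaks with both agents, within the top 0.237%, and 1492 among the 2404 with TNFα, within the top 62.1%, where it was 4.50-fold over input. The peak with both agents is printed because no CRTC2 peak accompanies it at the promoter. It lies upstream of the gene in no annotated transcript, reads 5′ to 3′ on the minus strand, and has the C/EBP match in capitals.
Saa3 p65 peak (chr7:46715747-46715909): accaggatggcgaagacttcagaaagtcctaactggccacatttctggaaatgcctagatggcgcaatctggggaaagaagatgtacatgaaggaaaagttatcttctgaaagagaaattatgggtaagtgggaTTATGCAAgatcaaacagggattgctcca
Neither NF-κB consensus was found in it. Further upstream, p65 was listed 4311 bp from the start site with TNFα (11.5 normalized tags) and 3940 bp from it with both agents (8.30), the latter 49 bp from a CRTC2 peak of 12.9 normalized tags that was listed with both agents alone.

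Saa1 and Saa2, the forms made mainly in the liver, had no CRTC2 or p65 peak at a promoter in any library. A CRTC2 peak of 12.9 normalized tags between the 2 genes (chr7:46745802-46745964), 2903 bp upstream of Saa1 and 5907 bp upstream of Saa2, was listed with FSK and TNFα only. At Saa1 the only promoter H3AcK27 region had 6.61 normalized tags, again with both agents only, and Saa2 had none. Words of 50 bases that occur more than once in the genome made up 32.5% of the Saa1 gene and 31.4% of Saa2, but 8.90% and 7.27% of their promoters, compared with 4.27% of the Saa3 gene and 0 of its promoter. Reads from such words may be lost or misplaced, and their part in the missing peaks was not tested.

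Lcn2 carried both factors, side by side. Lipocalin 2 (chr2:32384633-32388252, minus strand) binds bacterial siderophores and starves bacteria of iron. Its promoter CRTC2 peak had 16.4 normalized tags in the control (11.2 to 23.3), 30.4 after FSK (22.6 to 40.1), 45.0 after TNFα (37.2 to 53.8) and 36.5 after both agents (30.1 to 43.7). The library with TNFα alone was highest and the control lowest, and the control interval overlapped that of FSK but not the other two. The ratio of TNFα to control was 2.74, whereas the median over CRTC2 peaks shared by those libraries was 2.10.

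p65 was listed at the Lcn2 promoter with TNFα at 16.0 normalized tags (11.6 to 21.5) and with both agents at 46.9 (37.9 to 57.2), and in neither library without TNFα. The ratio was 2.93, and the scores were 14 with TNFα and 25 with both agents. By score the peak was within the top 3.99% of the list with TNFα and the top 0.498% of that with both agents. The p65 midpoint lay 155 bp upstream of the start site of the shorter transcript with both agents, while the CRTC2 midpoint lay 42 bp downstream of it. The peaks were separated by 34 bp, and by 64 bp with TNFα alone. A second transcript of Lcn2 starts further upstream, and the p65 peak falls in a coding exon of that transcript. The peak is printed because it holds matches to the looser NF-κB consensus and to C/EBP, both in capitals, in that order (minus strand).
Lcn2 p65 peak (chr2:32387871-32388033): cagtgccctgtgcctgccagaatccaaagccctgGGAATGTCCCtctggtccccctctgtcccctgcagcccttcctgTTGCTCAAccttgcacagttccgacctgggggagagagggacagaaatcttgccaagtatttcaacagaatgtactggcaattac
The NF-κB match began 202 bp upstream of the start site and the C/EBP match 158 bp upstream. Near the Ciz1 start site, 24490 bp downstream of the Lcn2 start site and inside the window of the gene, CRTC2 had 10.6 normalized tags in the control, 17.0 after FSK, 33.6 after TNFα and 11.0 after both agents.

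C3 showed a similar arrangement. Complement C3 (chr17:57203970-57228136, minus strand, 41 exons) is the central protein of the complement cascade. CRTC2 at its promoter had 9.0 normalized tags in control cells (5.24 to 14.4), 36.3 with TNFα (29.4 to 44.3) and 29.6 with both agents (23.9 to 36.2), and was not listed with FSK. p65 had 10.0 with TNFα (6.61 to 14.6) and 22.9 with both agents (16.9 to 30.5), within the top 79.8% and 3.25% of their lists by score. The p65 intervals, with repeated tags included, do not overlap, while the scores were 8 with TNFα and 14 with both agents. The ratio was 2.29, and 12.5% of the shared p65 peaks had a ratio at least as high. The peaks of the 2 factors lay 22 bp apart with TNFα and 15 bp apart with both agents, with p65 upstream and CRTC2 over the first exon. The p65 peak with both agents ended 1 bp before the outermost start site and is printed to show the C/EBP match (capitals, minus strand), which began 45 bp upstream.
C3 p65 peak (chr17:57228137-57228299): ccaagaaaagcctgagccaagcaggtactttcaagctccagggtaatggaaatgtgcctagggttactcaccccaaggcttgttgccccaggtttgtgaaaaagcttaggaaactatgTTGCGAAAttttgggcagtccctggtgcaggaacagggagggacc
Neither NF-κB consensus was found in this peak. A looser NF-κB match, 36 bp downstream of another C3 start site, lay inside the CRTC2 peak in the control and with TNFα alone. The CRTC2 peak with both agents did not hold the whole match.

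At the Hp promoter both factors were listed in the 2 libraries with FSK. Haptoglobin (chr8:109575128-109579172, minus strand, 5 exons) binds free hemoglobin. CRTC2 had 14.0 normalized tags with FSK (8.87 to 21.0) and 15.4 with both agents (11.4 to 20.4), and p65 had 14.8 with FSK (10.4 to 20.4) and 19.5 with both agents (13.9 to 26.6). None was listed in control cells or with TNFα alone, and the intervals of each factor overlap. The p65 and CRTC2 peaks overlapped each other by 160 bp with FSK and by 65 bp with both agents. The FSK p65 peak had the lowest score of its list, 7, and was 5.76-fold over input. Upstream of Hp, p65 was listed in the 2 libraries with TNFα instead, 5439 bp from the start site with TNFα (18.2 normalized tags) and 5496 bp from it with both agents (14.2). At 6654 bp upstream p65 (16.6) and CRTC2 (11.0) overlapped by 105 bp with both agents.

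Orm1 had promoter CRTC2 with both agents alone, and Serpina3n in the 2 libraries with FSK. Orosomucoid 1 (chr4:63344560-63348163, plus strand) is the α1-acid glycoprotein, a carrier of drugs and lipids. Its promoter CRTC2 peak had 11.0 normalized tags (7.66 to 15.3). In the same library p65 (19.0, 13.5 to 26.0) and CRTC2 (9.12, 6.11 to 13.1) overlapped by 140 bp, 5636 bp upstream of the start site by the p65 midpoint. That p65 peak had the lowest score of its list, 7, and was 51.8-fold over input. It is printed as an example of the sites far from a promoter where the factors overlapped, with its C/EBP match in capitals (plus strand). That match lies 53 bp from the peak midpoint, and a STAT match, not marked, lies 2 bp from it. Over the whole list, 7.91% of p65 peaks with both agents held the STAT motif.
Orm1 p65 peak (chr4:63338843-63339005): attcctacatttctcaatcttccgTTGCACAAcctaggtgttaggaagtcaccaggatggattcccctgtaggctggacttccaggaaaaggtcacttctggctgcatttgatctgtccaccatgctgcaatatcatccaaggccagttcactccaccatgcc
The remaining CRTC2 peaks of the Orm1 window lay within 50 bp of the Orm3 start site in 3 libraries, and 149 and 699 bp upstream of the Orm2 start site with both agents. For these genes the 300 bp upstream of the start site were 85.5% (Orm3) and 83.7% (Orm2) identical to those of Orm1. Serpina3n (chr12:104406729-104414329, plus strand), an inhibitor of serine proteases, had promoter CRTC2 at 6.69 normalized tags with FSK (3.34 to 12) and 8.49 with both agents (5.59 to 12.4), from 11 and 27 tags. These were the lowest normalized tags of any promoter peak of either factor in the group, and the intervals overlap.

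Ptx3 had CRTC2 at the promoter and p65 upstream. Pentraxin 3 (chr3:66219910-66225805, plus strand, 3 exons) is a soluble receptor for microbes, and the gene lies inside an intron of Veph1. Its promoter CRTC2 peak had 12.7 normalized tags in the control (8.14 to 18.9), 27.4 after FSK (20.0 to 36.6), 41.6 after TNFα (34.2 to 50.1) and 38.0 after both agents (31.6 to 45.5). The control interval lies below the other 3, and the 2 libraries with TNFα had the highest values. The ratio to control was 2.16 with FSK, 3.28 with TNFα and 2.99 with both agents, and 26.8%, 18.8% and 8.0% of the CRTC2 peaks shared by those libraries had a ratio at least as high.

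No p65 peak was listed at the Ptx3 promoter, and none in its window in control cells or with TNFα alone. With FSK alone p65 (15.2 normalized tags) and CRTC2 (10.3) overlapped by 128 bp, 4013 bp upstream. With both agents p65 was listed at 4 sites, of which the highest lay 2460 bp upstream, with 27.8 normalized tags (21.1 to 36.0), and 18 bp from a CRTC2 peak of 19.8. It is printed because its looser NF-κB match, in capitals, lies 12 bp from the peak midpoint (plus strand). A STAT match, not marked, lies 50 bp from the midpoint.
Ptx3 p65 peak (chr3:66217369-66217531): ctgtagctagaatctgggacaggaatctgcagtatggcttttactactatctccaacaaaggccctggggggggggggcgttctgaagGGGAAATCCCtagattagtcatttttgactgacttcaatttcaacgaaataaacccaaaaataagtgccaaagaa
A second co-bound site lay 10921 bp upstream with both agents, where p65 (14.2) and CRTC2 (23.0) overlapped by 97 bp and the C/EBP motif was matched again. CRTC2 was also listed there with FSK at 23.1 normalized tags.

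**Figure D3:**
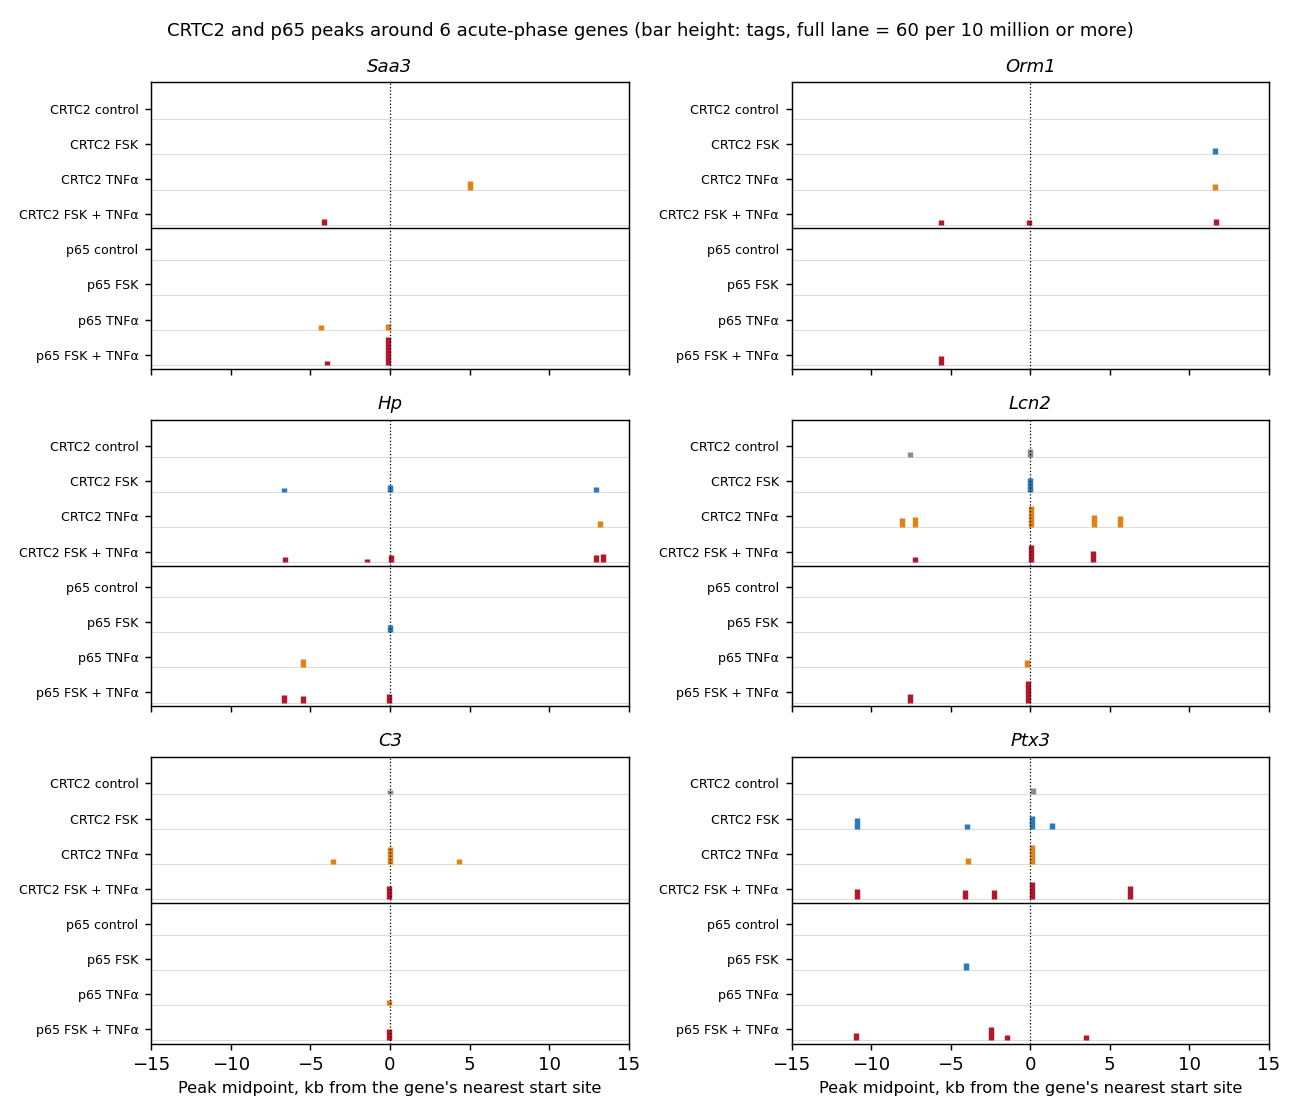
CRTC2 (upper lanes) and p65 (lower lanes) peaks within 15 kb of the start site for 6 genes, by treatment. The horizontal axis is the distance of the peak midpoint from the nearest start site in kb, upstream negative, and bar height is normalized tags, with a full lane at 60 or more. The control lanes of p65 are empty at all 6 genes, and the tallest p65 bar is that of Saa3 with FSK and TNFα.

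Over the windows of the 9 genes, CRTC2 and p65 peaks overlapped at 0 loci in the control, 2 after FSK, 0 after TNFα and 4 after both agents. In the same order the windows held 0, 3, 6 and 15 distinct p65 peaks, so the 0 in the control was fixed by the lack of p65 peaks. The 2 with FSK were the Hp promoter and the site 4013 bp upstream of Ptx3. The 4 with both agents were the Hp promoter, the sites upstream of Hp and Orm1, and the distal Ptx3 site. The p65 peak held the C/EBP motif at all 4, compared with 22.5% of the 476 p65 peaks that overlapped CRTC2 over the whole list. The match at Hp is the promoter match printed above. With FSK the p65 peak at the Hp promoter held the motif and that upstream of Ptx3 did not, compared with 9.23% of the 65 such peaks. The peaks were neighbors at the Lcn2 and C3 promoters, 3940 bp upstream of Saa3 and at the proximal Ptx3 site. The gaps were 34, 15, 49 and 18 bp. That upstream p65 peak of Saa3 had the lowest score of its list, 7. The p65 peak at the Saa3 promoter was separated from the nearest CRTC2 peak by 3861 bp. Over whole lists, 11.3% of p65 peaks overlapped a CRTC2 peak with both agents, 5.07% with TNFα, 2.19% with FSK and 1.40% in control cells.

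**Figure D4:**
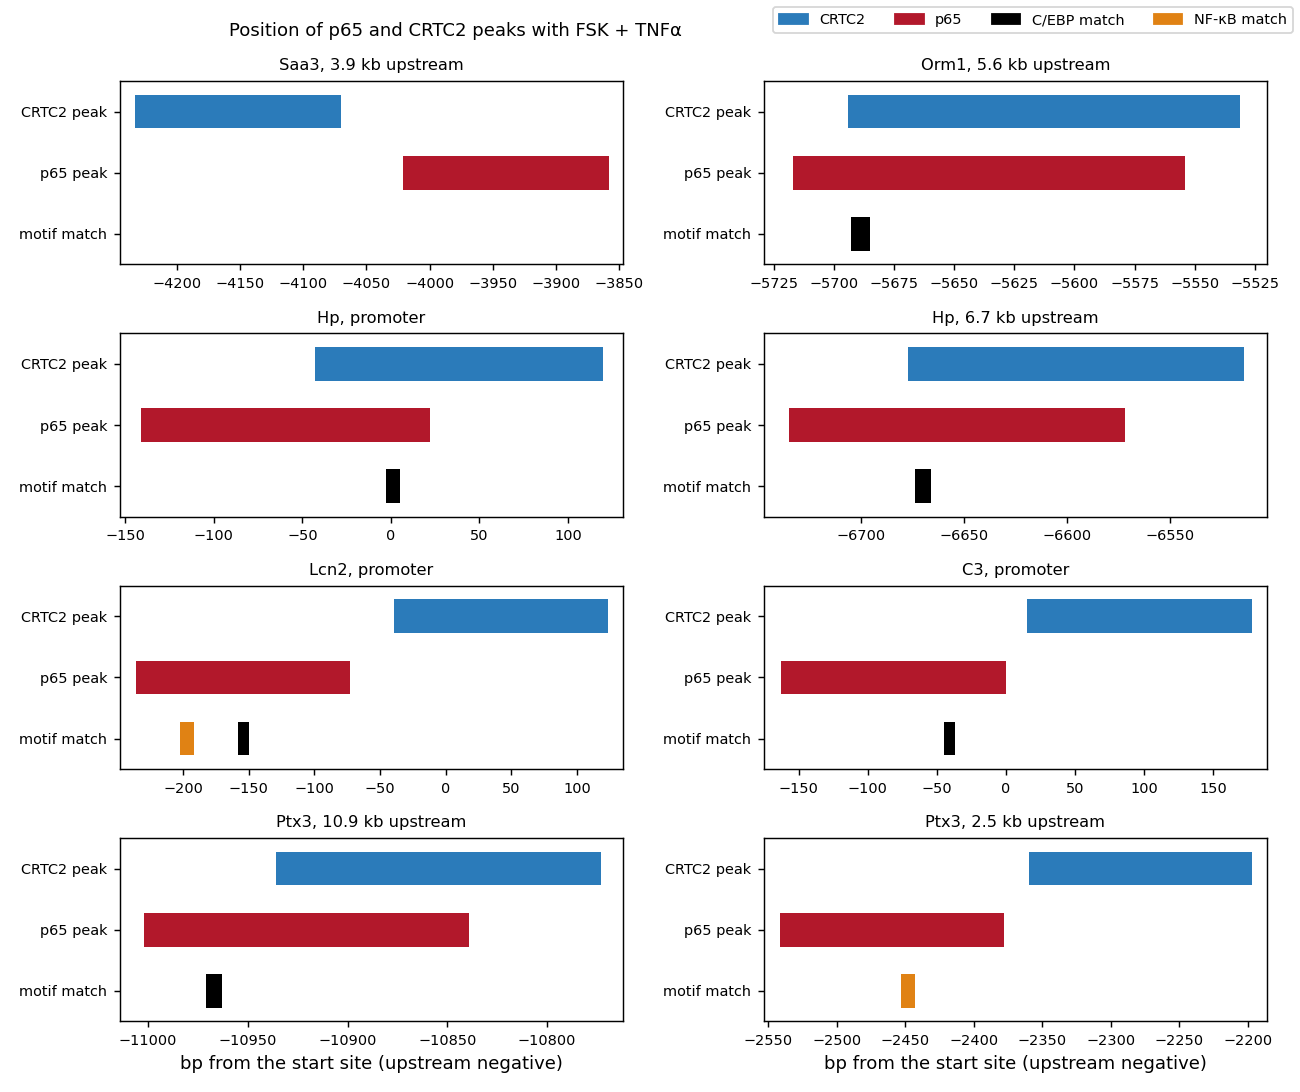
The 8 sites at which a p65 peak with FSK and TNFα overlapped a CRTC2 peak of the same treatment or lay within 50 bp of one, drawn to scale in bp from the start site, upstream negative. Blue bars are CRTC2 peaks, red bars p65 peaks, black bars C/EBP matches and orange bars matches to the looser NF-κB consensus. At the Lcn2 and C3 promoters the matches drawn lie under the p65 peak and not under the CRTC2 peak. A looser NF-κB match of C3 that lay inside its CRTC2 peak in the control and with TNFα alone is not drawn. At the Saa3 site, 3.9 kb upstream, there is none, and the Saa3 promoter is not drawn.

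H3AcK27 was present at most of these promoters before treatment. A region overlapped the promoter of 7 genes in the control (51.7% of all genes), 6 after FSK (47.0%), 7 after TNFα (51.4%) and 8 after both agents (49.1%). The summed normalized tags of promoter regions at Lcn2 were 390 in the control, 352 after FSK, 1120 after TNFα and 1020 after both agents, and 922, 884, 1420 and 1270 at Ptx3 in the same order. At Saa3 they were 274, not listed with FSK, 722 and 372. The 2 libraries with TNFα were thus higher than the other 2 at Lcn2 and Ptx3. At C3 the values were 745, 477, 940 and 714, at Hp 343, 255, 416 and 292, and at Orm1 533, 513, 516 and 581. Serpina3n had the lowest values of the 7 genes, 26.8, 68.1, 40.4 and 54.4, with the minimum in control cells.

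With TNFα, 4 of the 7 genes that could be compared had promoter tags at least 1.5 times higher than control, compared with 8.65% of all genes. They were Saa3, Lcn2, Serpina3n and Ptx3, and 0 of the 7 had tags 1.5 times lower, compared with 4.30%. Serpina3n, at 1.51, and Ptx3, at 1.54, lay close to the cut. The Serpina3n intervals overlapped, at 21.1 to 33.7 in the control and 33.3 to 48.6 with TNFα, while those of Ptx3 did not. With FSK, 1 of 6 was higher (Serpina3n, 4.96% of all genes) and 1 lower (C3, 23.7%), and with both agents 2 of 7 were higher (Lcn2 and Serpina3n, 9.54%) and 0 lower (14.9%). The median ratio to control with TNFα was 1.51 over the 7 genes and 1.09 over all genes. Regions were called separately in each library, and their length differed: at Lcn2 the promoter region covered 5.59 kb in control cells and 15.3 kb with TNFα, with 69.7 and 73.4 tags per kb. On the scale of tags per kb 0 of the 7 genes were 1.5 times higher with TNFα, compared with 3.84% of all genes, and 3 of 6 were with FSK (Orm1, Hp and Serpina3n), compared with 8.10%. With both agents 2 of 7 were (Orm1 and Serpina3n), compared with 9.81%. The FSK library held 9832884 tags, compared with 25729060 to 27966129 in the other 3, and its part in the shorter regions was not tested.

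**Figure D5:**
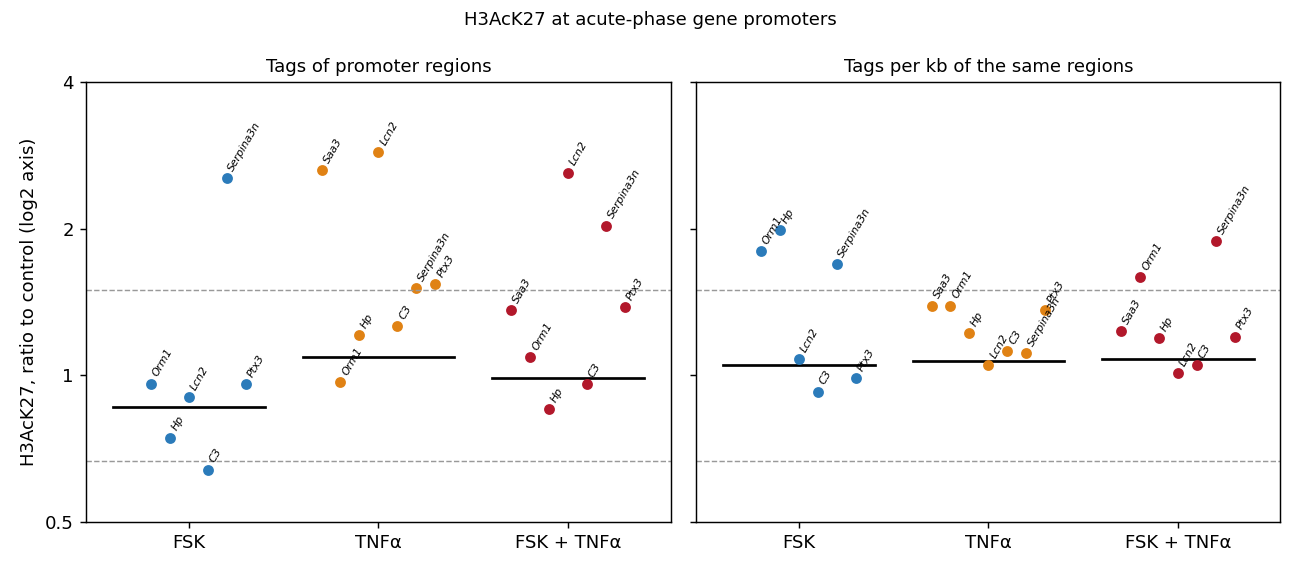
Ratio to control of H3AcK27 at the promoters, as summed tags (left) and as tags per kb of the same regions (right), on a log2 axis. Each point is a gene in 1 library, black lines are the medians over all genes with a promoter region in both libraries, and dashed lines mark 1.5 times higher and lower. Lcn2 with TNFα is at 2.88 by summed tags and at 1.05 per kb. Its region with TNFα spans a stretch that was called as a separate region in the control.

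Of 36 other acute-phase genes, 11 had a CRTC2 peak at a promoter in any library. The counts were 2 in the control (11.8% of all genes), 5 after FSK (27.4%), 6 after TNFα (39.9%) and 10 after both agents (29.1%), and none of these shares of the 36 exceeded that of all genes. Mt1, a metallothionein, had 13.8 normalized tags in the control, 48.7 after FSK, 50.6 after TNFα and 60.7 after both agents, with the control value the lowest. p65 was listed at 2 of the 36 promoters, Cfb (complement factor B) and Cp (ceruloplasmin), both with TNFα (0.627% of all genes) and Cfb also with both agents (1.01%). The 6 negative acute-phase genes, whose products fall in inflammation, had no CRTC2, p65 or H3AcK27 peak at a promoter in any library.

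The label of the cells was compared with H3AcK27 at marker promoters. Of 7 adipocyte markers, 3 (Fabp4, Pparg and Lpl) had a promoter region in every library and the other 4, Adipoq, Plin1, Cd36 and Cidec, in none, although all 7 had regions within 30 kb. Of 5 macrophage markers 1 or 2 had a promoter region, from Csf1r and Cd68, and of 5 hepatocyte markers 0 did. The part of other cell types in the results was not tested. CRTC2 libraries held 16438040 to 31807394 tags and p65 libraries 20490261 to 26904732, with 5188 to 19527 CRTC2 peaks and 214 to 4221 p65 peaks listed.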

How the data were processed

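ChIP-seq peak lists for CRTC2, p65 and H3AcK27 in 4 treatments were used, with 1 library each and 12 in all. The 9 genes and the other gene lists were chosen with earlier results of these data known. Per the submitters' processing notes, reads were processed with STAR and HOMER against mm10, and versions and read length are not given in the sources used here. Per the file headers, HOMER findPeaks was run on each library by itself, with the factor style for CRTC2 and p65 and the histone style for H3AcK27. The signal that the authors deposited for a peak is its tag count scaled to 10000000 tags per library, and the input signal was scaled alike. Whole tag counts were deposited as well in some lists and were otherwise recovered from the scaled values and the library total in the file headers. For CRTC2 and p65 the deposited score is the authors' tag number after limiting repeated tags, and it was used only to rank peaks within a list. The deposited fold values are ratios of tags over input, and the authors kept CRTC2 and p65 peaks at least 4-fold over input and over the local 10 kb.

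Genes and start sites came from protein-coding transcripts of GENCODE vM21 (GRCm38), and 0 of 243429 peaks ran past a chromosome end. The 9 genes are all named, and other acute-phase genes could be named where a promoter carried CRTC2 or p65 in any library, with some not reported here. Overlap needed at least 1 bp. Motifs were matched exactly on both strands of the reference. Where a library had 2 or more peaks over a peak of another, it was left out of shared ratios. Functions were tested on simulated data. Intervals cover counting error only and take repeated tags as separate counts, since tags lack molecular identifiers. Python 3.11.15, numpy 2.4.6, scipy 1.17.1, numba 0.67.0, Biopython 1.88 and matplotlib 3.10.9 did the computing. The reads and the 2 input libraries were not analysed here.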

Additional observations from a re-analysis of the deposited data

Results flagged for a closer look

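At the CRTC2 peak near the Ciz1 start site, 24490 bp downstream of the Lcn2 start site and within the window of the gene, the value was higher with each agent alone than in control cells, and lower with both agents than with either alone. Normalized tags were 10.6 in the control (6.47 to 16.4), 17.0 after FSK (11.3 to 24.6), 33.6 after TNFα (27 to 41.4) and 11.0 after both agents (7.66 to 15.3), so that only the interval with TNFα alone lay apart from the other 3. The control peak and the peak with both agents did not overlap each other and were joined through the peaks of the other 2 libraries. FSK gave 1.60 times the value without TNFα and 0.327 times the value with it, and TNFα gave 3.17 times without FSK and 0.647 times with it. Over all CRTC2 peaks shared by the same libraries the medians were 1.62, 0.729, 2.10 and 0.965. The ratio of these ratios was 0.204. With 1 library per treatment the difference was not tested. At the Lcn2 promoter, in the same libraries, FSK gave 1.85 times the value without TNFα and 0.811 times with it.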

How the results depend on the processing

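Recomputing 35 counts under other settings gave 98 values, of which 80 stayed within 1.5 times of the reported count. Requiring 8-fold over input gave 3 genes with CRTC2 and 1 with p65 within 30 kb with FSK, 0 with promoter p65 with FSK, 4 with promoter H3AcK27 in control cells, and 0 and 2 loci with overlapping CRTC2 and p65 with FSK and with both agents. Lists cut to equal length gave 4 genes with CRTC2 within 30 kb with TNFα, 2 with promoter CRTC2 with FSK, and 0 and 2 overlapping loci with FSK and with both agents. Assigning peaks to the nearest start site gave 4 genes with CRTC2 with TNFα. For H3AcK27, tags per kb gave 3 genes higher and 0 lower with FSK and 0 higher with TNFα. Regions of the whole window gave 0 higher and 3 lower with FSK (31.7% of all genes lower) and 0 higher with both agents. The 3 were Saa1, Saa2 and Saa3, whose windows overlap and share regions. The looser NF-κB consensus was in 3 promoters. The stricter or shorter lists hold fewer peaks by construction, and otherwise the cause was not tested. No share of all genes was computed at 8-fold over input, at equal list length or by nearest start site. Whether those counts moved more for the acute-phase genes than for other genes was therefore not tested.

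No paired analysis was possible because each antibody and treatment had 1 library and the labels give no replicate numbers. A listed peak depends on depth, and the shallowest library, H3AcK27 with FSK, held 9832884 tags.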

Other observations

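At the upstream edge of the Lcn2 window, over Slc25a25, a mitochondrial carrier gene, H3AcK27 regions held 13.4 normalized tags over 0.809 kb in the control, 150 over 3.38 kb after FSK, 23.2 over 1.04 kb after TNFα and 115 over 3.04 kb after both agents. Per kb these were 16.6, 44.3, 22.4 and 37.8 normalized tags, so the 2 libraries with FSK were the highest on both scales. Across the shared Dhx38 and Txnl4b start sites in the Hp window the sums were 184, 359, 264 and 402, over 2.31, 3.69, 3.27 and 4.63 kb, and the values per kb lay closer together, at 79.6, 97.3, 80.8 and 86.8. Between Saa3 and Saa1, regions 10010 bp upstream of Saa3 held 94.9, 24.4, 205 and 79.7, over 3.22, 0.642, 4.90 and 2.07 kb. Per kb these were 29.5, 38.0, 41.9 and 38.4, so the low sum after FSK was that of the shortest region. None of these differences has a replicate check.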
